A study of Mus musculus with 5 samples.

Results

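The nuclei described here were GABAergic neurons found among nuclei that had been sorted to leave neurons out. The study profiled nuclei of 5 mice by single-nucleus RNA sequencing (snRNA-seq), 1 library per mouse, and its sort kept nuclei positive for the DNA dye DAPI and negative for NeuN, the protein product of Rbfox3 that marks most neurons, and for Olig2, a factor of the oligodendrocyte lineage. A nucleus was taken as GABAergic when it held at least 6 unique molecular identifiers (UMIs, each standing for 1 captured transcript molecule) of the neuronal genes Snap25, Syt1, Myt1l, Celf4, Grin2b and Kcnip4 together. It also had to hold at least 1 UMI of Gad1, Gad2 or Slc32a1, more of these than of the glutamate transporter genes Slc17a7 and Slc17a6, and at most 2 UMIs of the oligodendrocyte genes St18 and Mog. Among 9748 deposited nuclei, 9505 had at least 200 but fewer than 4500 genes, fewer than 10000 UMIs and less than 5% mitochondrial UMIs, and 277 of these (2.91%) met the rule.

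The 2 R241E mice carried Tmem119-creERT2, a tamoxifen-inducible Cre recombinase driven by the promoter of the microglial gene Tmem119, and were heterozygous for a conditional Cgas allele with the R241E mutation, which impairs nucleosome binding by cGAS. The 3 WT mice carried the same Cre with 2 wild-type Cgas alleles, by their labels. The study's methods describe tamoxifen injection into young adults, with the allele made in C57BL/6J zygotes, and its account of this experiment calls the control mice heterozygous, unlike the labels, so the control genotype is used here as labelled. Recombination was therefore directed at microglia and brain macrophages, not at the neurons described here. The text on STING inhibition by H-151 that accompanies all 5 samples assigns no treatment to any of them. Tissue was labelled as hippocampus and cell type as microglia, whereas the extraction text names brain without a region.

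GABAergic neurons make the inhibitory transmitter GABA from glutamate with the glutamate decarboxylases encoded by Gad1 and Gad2. The vesicular transporter encoded by Slc32a1 loads GABA into synaptic vesicles. In the hippocampus such neurons are mostly local interneurons, whereas the olfactory bulb and the cerebellar cortex hold large populations of small GABAergic cells with transcription factor programmes of their own.

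The 277 nuclei comprised 34 and 48 in R241E replicates 1 and 2, and 145, 29 and 21 in WT replicates 1, 2 and 3, so that WT replicate 1 alone supplied 145 of them. Summed over these nuclei, R241E replicates 1 and 2 gave 230382 and 221490 UMIs, and the 3 WT libraries gave 778239, 148646 and 96917. There was a median of 5057 UMIs per GABAergic nucleus, within a range of 1272 to 9970, against 4797 in the 138 glutamatergic nuclei chosen by the mirrored rule and 2520 in the 5656 microglial nuclei. The replicate libraries of each group differed from each other by more than counting noise. Of all nuclei, 26 shared a barcode with a nucleus of another library (13 barcodes), and 1 of these 26 was GABAergic.

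Membership often rested on few molecules. Of the 277 nuclei, 84 held 1 UMI of the 3 GABA genes, 70 held 2, 34 held 3 and 89 held 4 or more, with a maximum of 13. Gad1 (chr2:70561303-70602014 in GRCm38.p6) was detected in 203 nuclei, Gad2 (chr2:22621015-22693877) in 171 and Slc32a1 (chr2:158607260-158615747) in 41. Only 3 of the 277 nuclei held a glutamate transporter UMI. Just inside the neuronal threshold lay 9 nuclei with 6 neuronal UMIs and 8 with 7, and just outside it lay 11 with 4 and 7 with 5 that met the rest of the rule. A further 349 nuclei with enough neuronal UMIs held no UMI of either transmitter class and 1 held equal numbers. Lifting the upper limits on genes and UMIs added 75 nuclei.

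Transcripts outside the rule were examined next to check the label. Dlx6os1, a non-coding transcript of forebrain GABAergic neurons, was at 69.4 and 72.2 CPM (the gene's UMIs per 1000000 UMIs of these nuclei in a library) in R241E and 487, 767 and 248 CPM in WT. In the pooled glutamatergic nuclei Dlx6os1 was at 0 CPM and in the pooled microglial nuclei at 0.505 CPM. It was thus higher in these nuclei of every library than in both other classes, and its level was not used by the rule. The glutamatergic nuclei were, however, chosen to hold fewer GABA than glutamate transporter UMIs. The microglial nuclei held at least 6 UMIs of microglial genes and at most 2 of the neuronal genes. Low levels in these classes were thus partly set by their choice. Among the clusters described below, Dlx6os1 stood at 561 CPM in clusters 2, 5 and 6 pooled but at 3.64 CPM in cluster 1. The label of the cluster 1 nuclei was therefore not checked by this transcript. Some defining transcripts of hippocampal interneurons were near 0. Lhx6, a transcription factor of interneurons from the medial ganglionic eminence, gave 1 UMI in all 277 nuclei, and Lamp5 gave 1. The neuropeptide genes Sst, Npy and Vip gave 3, 7 and 2 UMIs, and Sncg gave 0, which allows a share of up to 1.08% of nuclei with a UMI. These totals were drawn from 1475674 UMIs. Other genes listed for such interneurons were abundant, so that the list of interneurons from the medial ganglionic eminence gave 9256 UMIs, of which Nxph1 gave 8176, and the list of those from the caudal ganglionic eminence gave 4141, of which Adarb2 gave 3959. The markers were thus divided on the hippocampal label, and the region that the nuclei came from was not tested.

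How large a part of each library these neurons made was asked first. They made 1.41% (95% exact binomial interval 0.982 to 1.97) and 3.54% (2.62 to 4.66) of the kept nuclei in R241E replicates 1 and 2. In WT replicates 1, 2 and 3 they made 9.45% (8.03 to 11.0), 1.48% (0.991 to 2.11) and 0.935% (0.58 to 1.43). WT replicate 1 was far above all other libraries, and the groups overlapped. The mean share was 2.48% ± 1.501 (SD, n = 2) in R241E and 3.95% ± 4.77 (SD, n = 3) in WT, with p = 0.9 in an exact two-sided permutation test over libraries, in which 2 against 3 libraries cannot give a p below 0.1. Without WT replicate 1 the difference, R241E minus WT, turned from -1.48 to 1.27 percentage points. These intervals cover counting error only.

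Against the other neurons that passed the sort, GABAergic nuclei made 46.6% of 73 and 62.3% of 77 nuclei with a transmitter class in R241E. In WT they made 85.8% of 169, 51.8% of 56 and 52.5% of 40. The libraries other than WT replicate 1 lay between 46.6% and 62.3%. R241E averaged 54.5% ± 11.1 (SD, n = 2) by this measure, compared with 63.4% ± 19.4 (SD, n = 3) for WT (two-sided exact permutation p = 0.8), and without WT replicate 1 the difference changed sign, to 2.31 percentage points.

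The GABAergic nuclei fell into 8 clusters whose make-up differed greatly between libraries. Cluster 1 (57 nuclei) carried 5 of 9 markers of cerebellar molecular layer interneurons, namely the transcription factor gene Tfap2b, the receptor tyrosine kinase gene Kit, and Sorcs3, Lypd6 and Megf11, and was called cerebellar interneuron-like. Genes leading it over the other GABAergic nuclei included Cntn4, Unc5c, Cnpy1 and Kit. It held 12 and 40 nuclei of R241E (35.3% and 83.3% of their GABAergic nuclei) and 1, 3 and 1 nuclei of WT (0.69%, 10.3% and 4.76%). Every R241E library was above every WT library in this share, and the 2 R241E libraries also lay far apart.

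Clusters 2, 5 and 6 passed 5, 3 and 5 of 7 markers of olfactory bulb granule cells (limits given under processing) and were called olfactory bulb granule-like. The transcription factor gene Meis2 and the synaptic vesicle protein gene Synpr passed in each. The transcription factor gene Pbx3 passed in clusters 2 and 6, Sp8 in clusters 2 and 5 and Tshz1 in cluster 6. Synpr also passed in cluster 1 and in every unnamed cluster, and Meis2 in the unnamed clusters 4, 7 and 8. Cluster 6 passed 3 of 9 markers of medial ganglionic eminence interneurons as well. Cluster 2 (60 nuclei) was led by Hs3st4, Gm15987, Serpine2, Gpc5 and Ccnd2, cluster 5 (73 nuclei) by Cdh6, Slc1a3, Tle2, Opn3 and Htr1f, and cluster 6 (28 nuclei) by Arpp21, Cpa6, Gabra5, A830018L16Rik and Kcnb2. Gpc5 and Slc1a3 are also astrocyte transcripts. The 10 genes with the largest fold of cluster 5 over the other kept nuclei held Nxph1, which was listed as a marker of medial ganglionic eminence interneurons, and no olfactory bulb marker, so these clusters are compared by number. Clusters 2, 5 and 6 together held 4 and 5 nuclei of R241E (11.8% and 10.4%) and 120, 19 and 13 of WT (82.8%, 65.5% and 61.9%). All WT libraries were above both R241E libraries.

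The remaining clusters stayed unnamed. Cluster 3 (10 nuclei, all from R241E replicate 1) was led by 9330185C12Rik, Prr5l, Nrg1, Kcnh8 and Pde7b, and Vipr2 was detected in 90% of its nuclei, Lhx1 in 70% and Six3 in 60%. Cluster 4 (20 nuclei) drew on all 5 libraries and was led by 6330411D24Rik, Tafa1 and Cntnap5a, and cluster 8 (14 nuclei, 13 from WT replicate 1) was led by Ror1, Il1rapl2 and Creb5. In cluster 3 the list with the most passing markers was that of striatal projection neurons (Drd1, Pde10a and Bcl11b, 3 of 11). In cluster 4 it was that of midbrain or thalamic neurons (Gata3, Otx2 and Lhx1, 3 of 9). Neither cluster met the naming rule given under processing. Cluster 7 (15 nuclei, 1 from R241E and 6, 3 and 5 from WT) held neuronal and microglial transcripts together, with a median of 34 UMIs of 8 microglial genes per nucleus against 1 in the other GABAergic nuclei and 24 in microglial nuclei. Cluster 7 was led by Plxdc2, Inpp5d and Mertk, and Meis2, Synpr and Sp8 passed in it as in cluster 5. At a finer resolution 11 clusters formed, and the cerebellar interneuron-like cluster held the same 57 nuclei.

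**Figure D1:**
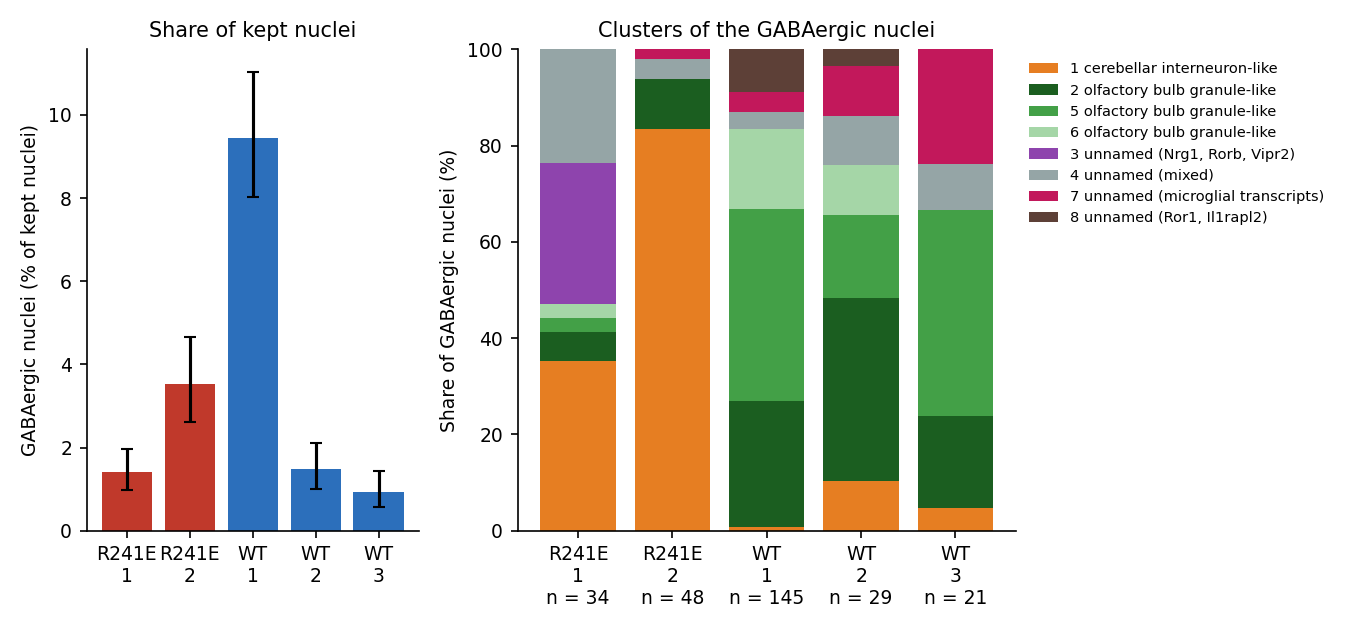
Left, GABAergic nuclei as % of kept nuclei in each library (bars, with 95% exact binomial intervals); right, the share of each cluster among the GABAergic nuclei of each library, in % (n = 34 and 48 in R241E, 145, 29 and 21 in WT). WT replicate 1 stands at 9.45%, cluster 1 makes 35.3% and 83.3% of the R241E nuclei, and clusters 2, 5 and 6 make 61.9% to 82.8% of the WT nuclei.

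The plot of cluster shares shows that the R241E and WT libraries held largely different kinds of GABAergic neurons. The kind of neuron and the genotype cannot be told apart in the comparisons over all GABAergic nuclei that follow. No dissection record or library batch was given by the sources used here, so neither was tested as a term.

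Which genes differed by genotype was tested on UMI counts summed over the GABAergic nuclei of each library. Of 4932 genes tested with edgeR's quasi-likelihood test (Benjamini-Hochberg adjusted p below 0.05), 40 were higher (0.811%) and 53 lower (1.07%) in R241E, 93 in all (1.89%), and 822 had an unadjusted p below 0.05. The p-values measure the spread between these 5 libraries. Lifting the upper limits on genes and UMIs per nucleus, which added 75 nuclei, left 0 called genes (689 at an unadjusted p below 0.05). Single genes were followed for this setting only among the 28 called genes named by the rule given under processing. Of these, log2 fold changes that shrank by more than 1.5-fold with those nuclei were Galnt17 (3.61 to 1.85), Scn9a (3.23 to 1.92), Cntn6 (2.79 to 0.77), Vav3 (3.07 to 1.65), Lrrc4c (2.31 to 0.76), Cacna2d3 (2.97 to 0.44), Gm16337 (-3.22 to -1.70) and Pag1 (-2.96 to -1.18). That of 9630013A20Rik, which had no UMI in R241E before those nuclei were added, shrank likewise. Leaving out any 1 of the 3 WT libraries also left 0 called genes by the same test (unadjusted p below 0.05 in 584 genes without WT replicate 1).

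Galnt17, Shisa6 and Scn9a had the smallest p among the genes called higher. Galnt17, a member of a glycosyltransferase family, stood at 369 and 799 CPM in R241E and 29.6, 67.3 and 61.9 CPM in WT (log2 fold change 3.61 ± 0.48 SE, edgeR adjusted p = 0.0309). Shisa6, which encodes an auxiliary protein of AMPA receptors, was at 326 and 736 CPM against 38.5, 53.8 and 82.5 CPM (3.31 ± 0.46, adjusted p = 0.0334). Scn9a, a voltage-gated sodium channel gene, was at 525 and 641 CPM against 59.1, 94.2 and 20.6 CPM (3.23 ± 0.46, adjusted p = 0.0337). It was not particular to cluster 1, at 612 CPM there and 682 CPM in the unnamed cluster 4. In each of these genes both R241E libraries were above all WT libraries. Others named by the rule included Gm13629, Cntn6, Cdkl1, Vav3, Gm12296 and Lrrc4c, with log2 fold changes from 2.11 (Gm13629) to 3.50 (Gm12296). Cntn6 encodes a contactin and Lrrc4c a netrin-G ligand, both cell adhesion molecules.

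The genes called lower included 4 with no UMI in either R241E library. Abcb5, a gene of the ABC transporter family (chr12:118867486-118966434), was at 197, 135 and 258 CPM in WT. Its level was at least 29.6-fold lower in R241E, where 3 UMIs over the 451872 UMIs of the group would have been 6.64 CPM. By the same measure 9630013A20Rik was at least 18.9-fold lower, and Lgr6, a receptor gene of the R-spondin pathway, at least 16.0-fold lower. The fourth was Prl2c1, outside the naming rule and named after its values were seen, at least 8.32-fold lower and a member of a gene family whose copies can share reads. Pde1c, which encodes a calmodulin-dependent phosphodiesterase, was at 217 and 176 CPM in R241E and 2136, 2025 and 1568 CPM in WT (log2 fold change -3.28 ± 0.47, edgeR adjusted p = 0.0337). Both R241E libraries were far below the lowest WT library for Pde1c. The membrane adaptor gene Pag1 was at 52.1 and 45.1 CPM against 385, 323 and 444 CPM (-2.96 ± 0.38, adjusted p = 0.0309). Gm16337, Gm5087, Calb2, Dlx1 and Sel1l3 completed the 10 named by the rule among the 53.

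**Figure D2:**
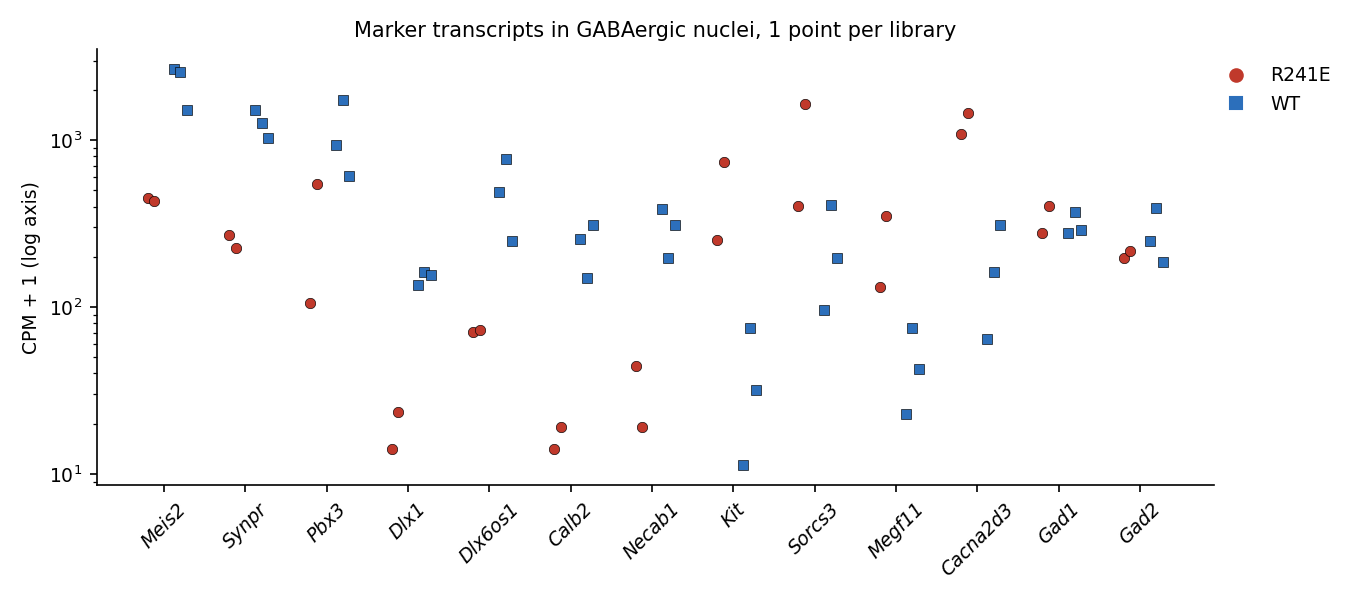
CPM + 1 (log axis) of marker transcripts in the GABAergic nuclei, 1 point per library (circles R241E, squares WT). Meis2, Synpr, Dlx1, Dlx6os1, Calb2 and Necab1 lie lower in both R241E libraries, Kit, Megf11 and Cacna2d3 lie higher, and Gad1 and Gad2 overlap.

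The plot of marker transcripts places the genes of these 2 kinds of neuron beside the genes that make GABA. Among 19 tested transcription factor and related genes of GABAergic lineages (46 listed), 4 were called lower and 0 higher (1.07% and 0.811% of all genes tested), with a median log2 fold change of -0.76 against 0.03 over all genes tested. Dlx1, a homeobox gene of forebrain GABAergic neurons, was at 13.0 and 22.6 CPM in R241E and 135, 161 and 155 CPM in WT (log2 fold change -3.04 ± 0.42, edgeR adjusted p = 0.0334). The non-coding gene Dlx6os1, with the levels given above, differed likewise (-2.83 ± 0.55, adjusted p = 0.0451). Both were lower in each R241E library than in any WT library. Sp9 (-3.97 ± 0.65, edgeR adjusted p = 0.0399) and Pax6 (-5.00 ± 0.94, adjusted p = 0.0433), which both act in olfactory bulb neurons, were the other called members. Meis2 was at 447 and 429 CPM against 2666, 2550 and 1517 CPM, without overlap, but its edgeR adjusted p was 0.0515.

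Of 5 calcium-binding protein genes of interneurons 2 were tested and both were called lower. Of all genes tested, 1.07% were called lower. Calb2, the calretinin gene (chr8:110142526-110168212), was at 13.0 and 18.1 CPM in R241E and 254, 148 and 310 CPM in WT (log2 fold change -3.90 ± 0.51, edgeR adjusted p = 0.0309). Necab1 was at 43.4 and 18.1 CPM against 384, 195 and 310 CPM (-3.28 ± 0.54, adjusted p = 0.0399). Neither gene overlapped between the groups, as was so in this direction for 15.1% of all genes tested. Of the olfactory bulb granule list, 6 of 8 genes were tested, 6 had a negative and 0 a positive fold change, and 1, Synpr, was called lower (269 and 226 CPM against 1505, 1265 and 1032 CPM; -2.37 ± 0.44, edgeR adjusted p = 0.0433). The median of the 6 was -2.07. Stxbp6 gave no UMI in R241E, at least 7.45-fold lower than in WT, and was not called.

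The cerebellar interneuron list moved in the other direction, with 4 of 9 genes tested, 4 positive fold changes, a median of 2.39 and 1 called gene, Kit (chr5:75574987-75656722). Of all genes tested, 0.811% were called higher. Kit stood at 252 and 740 CPM in R241E and 10.3, 74.0 and 31.0 CPM in WT (log2 fold change 4.01 ± 0.74, edgeR adjusted p = 0.0433), with every R241E library above every WT library. Both lists also served to name the clusters, that of the olfactory bulb with 7 genes, without Eomes, which had no UMI. These counts therefore describe the cluster make-up and are not independent of it.

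Of 31 voltage-gated channel genes, 28 were tested, 16 with a positive and 12 with a negative fold change. Of the 28, 2 were called higher, against 0.811% of all genes tested. Cacna2d3, an auxiliary calcium channel subunit gene, was at 1089 and 1454 CPM in R241E and 63.0, 161 and 310 CPM in WT (log2 fold change 2.97 ± 0.57, edgeR adjusted p = 0.0451). The potassium channel gene Kcna2 was at 122 and 298 CPM against 23.1, 20.2 and 0 CPM (3.39 ± 0.61, adjusted p = 0.0419). Neither overlapped between the groups. In all, 12 of the 28 were higher in both R241E libraries than in every WT library and 2 were lower in both, against 17% and 15.1% of all genes tested. DESeq2 called 5 of the 28, against 211 of all 4932 genes tested. Among them Kcna1 stood at 52.1 and 194 CPM against 7.71, 26.9 and 0 CPM (edgeR adjusted p = 0.0682).

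The genes that make and handle GABA showed no called difference. Of 8 tested, 3 had a positive and 5 a negative fold change and 0 were called by edgeR or DESeq2 (2 had an unadjusted p below 0.05). Gad1 was at 278 and 402 CPM in R241E and 278, 370 and 289 CPM in WT (log2 fold change 0.12 ± 0.34, edgeR adjusted p = 0.921). Gad2 was at 195 and 217 CPM against 247, 390 and 186 CPM (-0.42 ± 0.38, adjusted p = 0.685). Both overlapped between the groups, and both served in the rule, which requires their transcripts. Slc32a1 was at 26.0 and 22.6 CPM against 28.3, 33.6 and 51.6 CPM and had too few UMIs to be tested.

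Receptor genes likewise gave no call by edgeR. The DESeq2 counts below stand beside 211 called of all 4932 genes tested. Of the GABA-A receptor subunit genes, which encode the chloride channels opened by GABA, 10 of 15 were tested with a median log2 fold change of -0.02, 5 positive and 5 negative, where 4 had an unadjusted p below 0.05, and DESeq2 called 2. Gabra2 was the nearest to a call, at 148 and 122 CPM in R241E and 576, 309 and 516 CPM in WT (-1.81 ± 0.43, edgeR adjusted p = 0.0732). It was at 40.0 CPM in cluster 1 and 604, 638 and 685 CPM in clusters 2, 5 and 6. Cluster 1 was thus the lowest of these clusters, as R241E was of the genotypes, and the difference between clusters was not tested. The 4 tested GABA-B receptor genes had a median of 0.31, and 1 had an unadjusted p below 0.05, with 0 called by DESeq2. The 21 tested glutamate receptor genes had a median of 0.10, with 8 at an unadjusted p below 0.05 and 4 called by DESeq2. Gria3, an AMPA receptor subunit gene, was at 734 and 2352 CPM against 95.1, 323 and 134 CPM (3.10 ± 0.64, edgeR adjusted p = 0.0518), without overlap, and at 2556 CPM in cluster 1. The 10 tested genes of the inhibitory synapse had a median of -0.33, with 2 at an unadjusted p below 0.05 and 1 called by DESeq2. Nxph1, a neurexin ligand gene, stood at 1415 and 722 CPM against 8199, 5671 and 4808 CPM (-2.55 ± 0.58, edgeR adjusted p = 0.0668), without overlap.

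Neuropeptide, activity and injury transcripts were mostly too sparse to test. Of 21 neuropeptide genes 13 had a UMI and 1 was tested, of 15 immediate-early genes 1, and of 20 injury and stress genes in the files 4. Of the genes tested in these lists 0 were called by edgeR or DESeq2, and 0 had an unadjusted p below 0.05.

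The called genes were then followed within each kind of neuron. All 40 genes called higher in R241E had a lower CPM in clusters 2, 5 and 6 pooled than in cluster 1, with a median log2 ratio of -3.11, against 54.2% of all genes tested. All 53 genes called lower had a higher CPM there, with a median of 2.78, against 45.8% of all genes tested. This ratio pooled nuclei of all libraries, and since the libraries differ in cluster make-up it is a description without a test. Cluster 1 held 247889 UMIs from R241E and 26769 from WT, and clusters 2, 5 and 6 held 52869 and 769260. The ratio thus largely repeats the genotype contrast that chose the genes, and its direction was largely fixed in advance. The unnamed clusters, with 18 and 3 nuclei of R241E and 24, 7 and 7 of WT, entered neither side.

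Within clusters 2, 5 and 6, the pooled ratio of R241E to WT (log2 of CPM + 20) had a median of -0.20 for the 40 genes called higher, against 2.27 over all GABAergic nuclei. There 13 of the 40 were above 0 and 24 below. For the 53 genes called lower the median was -0.77 against -2.26, with 46 below 0, 7 above 0 and 19 more than 2-fold down. Over all 4932 genes tested the median was -0.08 and 13.5% were more than 2-fold down. Within cluster 1 the medians were 0.31 and 0.00. The cluster 2, 5 and 6 values rested on 4 and 5 nuclei of the R241E libraries with 52869 UMIs, and the cluster 1 values on 1, 3 and 1 nuclei of the WT libraries with 26769 UMIs, so differences of single genes were mostly not detectable at this depth. Fits within these clusters over the 5 libraries called 0 of 846 genes (clusters 2, 5 and 6; unadjusted p below 0.05 in 35) and 0 of 171 genes (cluster 1; 6) by edgeR.

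**Figure D3:**
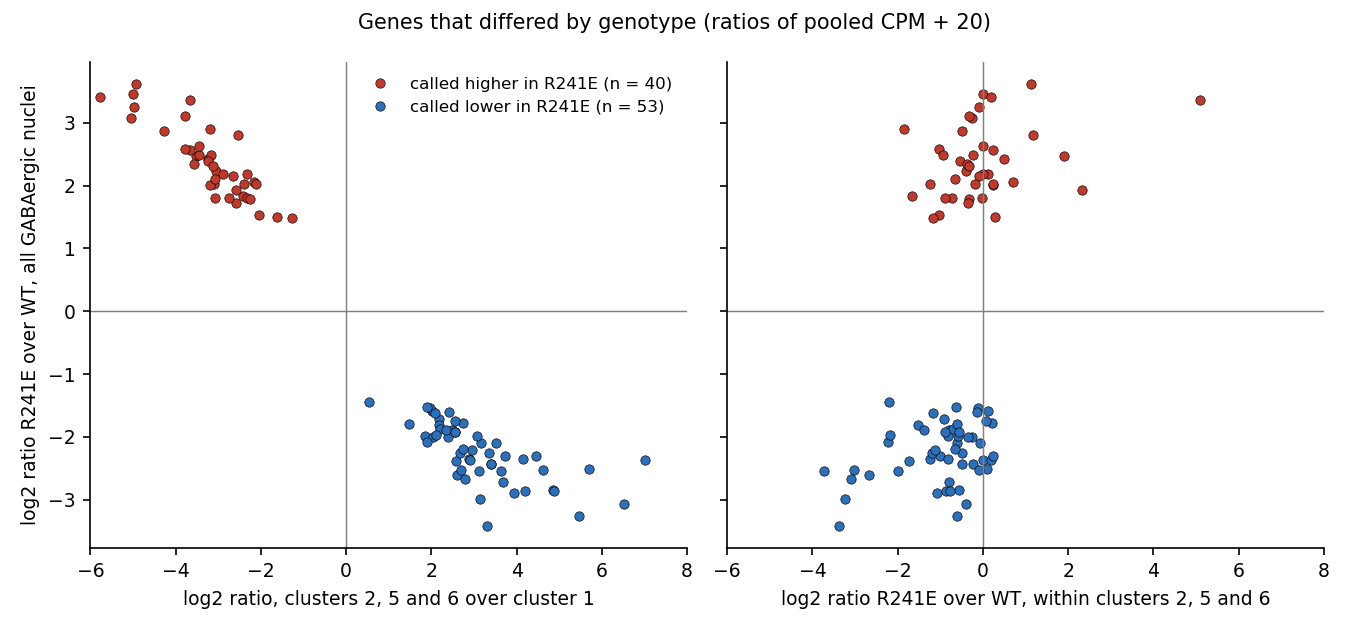
The 93 genes that differed by genotype (red for 40 higher, blue for 53 lower in R241E), as log2 ratio of R241E to WT over all GABAergic nuclei (vertical axis) against the log2 ratio of clusters 2, 5 and 6 to cluster 1 (left) and the log2 ratio of R241E to WT within clusters 2, 5 and 6 (right), all from pooled CPM + 20. On the left all red points lie left of 0 and all blue points right of it, and on the right the medians are -0.20 and -0.77. Cluster 1 is mostly R241E nuclei and clusters 2, 5 and 6 mostly WT nuclei, so the split on the left was largely fixed in advance.

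Genes with a genotype difference over all GABAergic nuclei varied in their values within clusters. Dlx1 was at 151 CPM in R241E and 159 CPM in WT within clusters 2, 5 and 6, and Meis2, which was not called, at 3159 and 2814 CPM. Calb2 was at 132 and 299 CPM, and Abcb5 at 0 and 188 CPM. Dlx1 and Meis2 were thus within 1.5-fold there, while Abcb5 had no UMI in the R241E nuclei of these clusters. Within cluster 1, Kit stood at 875 CPM in R241E and 560 CPM in WT. Galnt17 went both ways, at 835 CPM in R241E and 1307 CPM in WT within cluster 1, but at 757 and 2.60 CPM within clusters 2, 5 and 6, from 40 and 2 UMIs.

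NeuN was the protein sorted against, so its transcript was examined in the neurons that passed. Rbfox3 (chr11:118489760-118911597) was at 8.68 and 9.03 CPM in R241E and 89.9, 121 and 31.0 CPM in WT. Both R241E libraries were below all WT libraries. The log2 fold change was -3.23 ± 0.71, but the edgeR adjusted p was 0.0619 (DESeq2 called Rbfox3, but neither Rbfox1 nor Rbfox2), and the exact permutation p for the difference of mean CPM was 0.2. A UMI of Rbfox3 was found in 18.8% of the GABAergic nuclei and 8.7% of the glutamatergic nuclei, with median depths of 5057 and 4797 UMIs, and in 1.4% of the microglial nuclei, at a median of 2520.

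Across the clusters Rbfox3 ranged from 0 CPM in cluster 3 to 389 CPM in cluster 6. It was 94.2 CPM in cluster 8, 25.8 and 38.5 CPM in clusters 2 and 5, and 14.6 CPM in cluster 1. WT replicate 1 supplied 24 of the 28 nuclei of cluster 6 and 13 of the 14 of cluster 8. In the glutamatergic nuclei the levels of the groups overlapped, at 78.3 and 40.2 CPM in R241E and 36.4, 64.4 and 12.1 CPM in WT. The related splicing factor genes Rbfox1 and Rbfox2 overlapped between the groups in the GABAergic nuclei (log2 fold changes 0.39 ± 0.42 and 0.17 ± 0.44, edgeR adjusted p = 0.747 and 0.919).

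**Figure D4:**
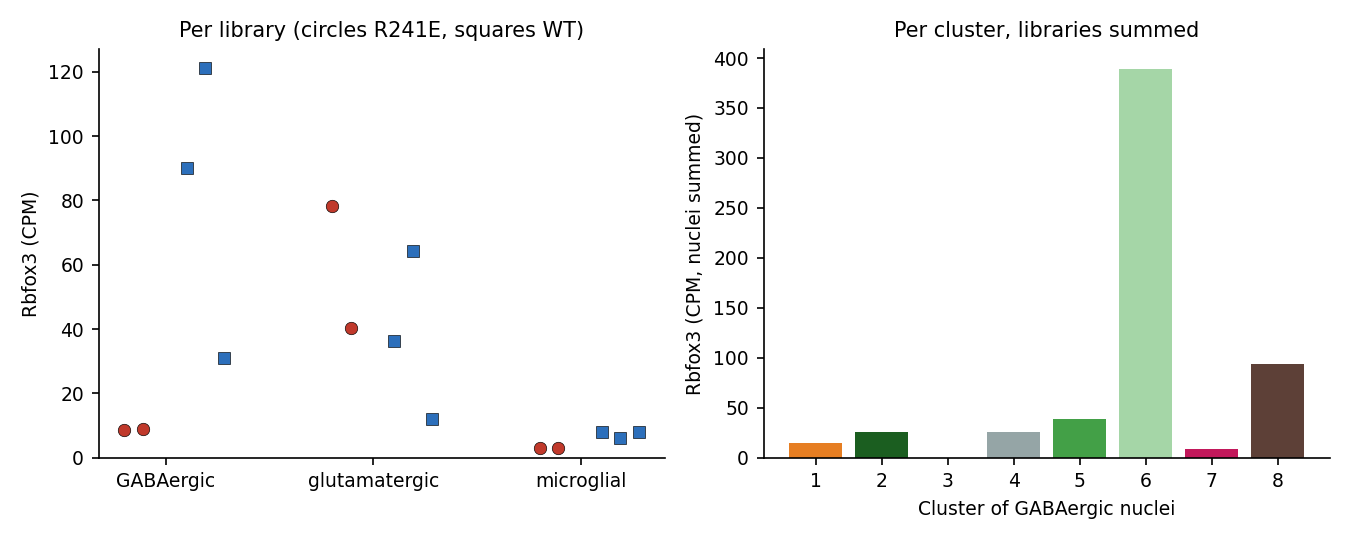
Rbfox3 in CPM for each library in GABAergic, glutamatergic and microglial nuclei (left, circles R241E, squares WT) and for each cluster of GABAergic nuclei with all libraries summed (right). In GABAergic nuclei the R241E libraries stand at 8.68 and 9.03 CPM and the WT libraries at 31.0 to 121 CPM; cluster 6 stands at 389 CPM.

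The study asked how cGAS activity in microglia affects other cells, and type I interferon and TNF are the signals such microglia may send to neurons. Its own answer came from a separate hippocampal snRNA-seq set, in which it reported minimal changes of transcription in neurons. In its co-cultures, neutralizing TNF strongly rescued neurons, whereas blocking type I interferon signalling had no effect. Type I interferon acts through the receptor encoded by Ifnar1 and Ifnar2, which most cell types carry. Of the study's 28 interferon-associated genes, which the study took from published sets, 21 had a UMI in the GABAergic nuclei and 4 were tested. Of these 4, 2 had a positive and 2 a negative fold change, 0 were called by edgeR or by DESeq2, 0 had an unadjusted p below 0.05, and the median was 0.20 against 0.03 over all genes tested. The genes Ifi44, Ifit1, Oas3, Zbp1, Helz2, Oasl1 and Rsad2 had no UMI in any library.

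The summed level of the 28 genes was 668 and 894 CPM in R241E and 637, 747 and 980 CPM in WT, with means of 781 ± 159 (SD, n = 2) and 788 ± 175 (SD, n = 3). Without the 3 members with the most UMIs, a split made after the values were seen, the other 25 genes summed to 99.8 and 144 CPM in R241E and 42.4, 80.7 and 217 CPM in WT, from 23, 32, 33, 12 and 21 UMIs. The groups overlapped because WT replicate 3 was the highest library. In the microglial nuclei of the same libraries these 25 genes summed to 2845 and 2453 CPM in R241E and 383, 305 and 298 CPM in WT. The groups there did not overlap.

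Microglial transcripts also differed between the libraries, and WT replicate 3 was the highest in both these and the interferon sum. Summed over 14 microglial marker genes, the GABAergic nuclei held 313 and 519 CPM in R241E and 553, 1588 and 3147 CPM in WT, where microglial nuclei held 13292 to 16032 CPM. All 14 had a UMI, and of 13 tested, 13 had a negative fold change and 0 were called by edgeR. Of the 13, 8 had an unadjusted p below 0.05, and DESeq2 called 4, against 211 of all 4932 genes tested. In 9 of them both R241E libraries were below all WT libraries (15.1% of all genes tested). Without cluster 7 the sums were 313 and 398 CPM against 279, 491 and 416 CPM, and the 25 interferon genes summed to 99.83 and 125 CPM against 40.8, 88.6 and 99.81 CPM. Both R241E libraries were then above every WT library, R241E replicate 1 by less than the worth of 1 UMI. The part of microglial RNA in the single-gene differences was not tested, while 118 genes were called without cluster 7, of which 83 were among the 93.

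**Figure D5:**
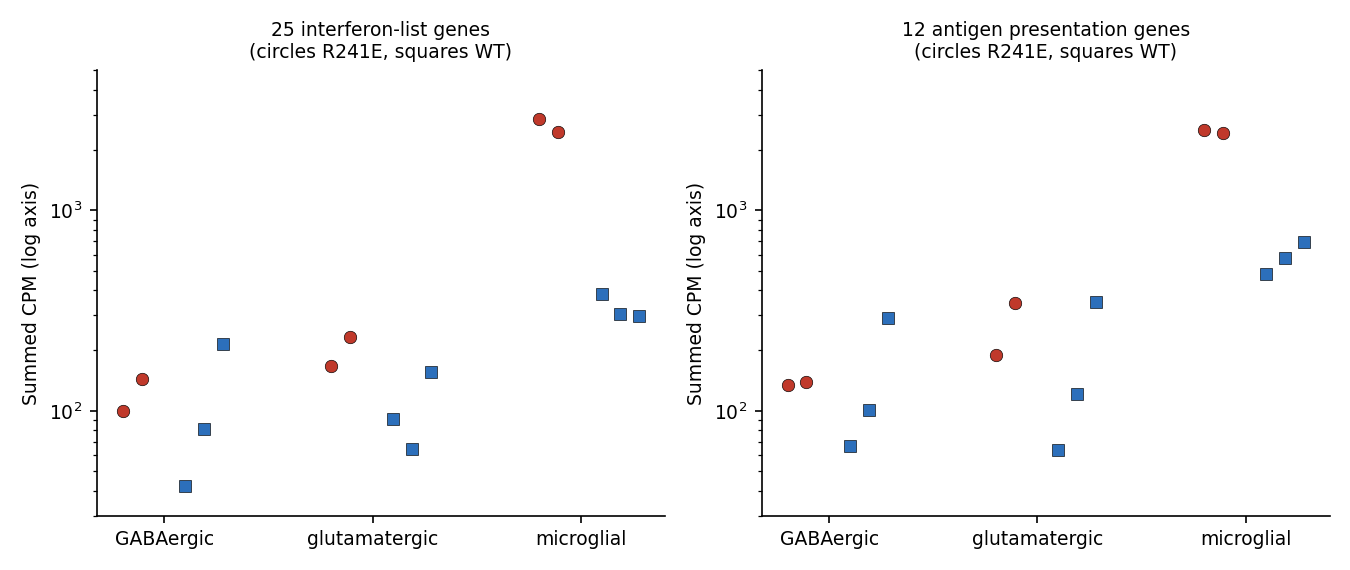
Summed CPM (log axis) of 25 interferon-list genes (left) and 12 antigen presentation genes (right) for each library in GABAergic, glutamatergic and microglial nuclei (circles R241E, squares WT). With all nuclei included, the groups overlap in GABAergic nuclei, where the interferon genes sum to 42.4 to 217 CPM, and do not overlap in microglial nuclei, where they sum to 298 to 2845 CPM.

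As the plot of summed levels shows, antigen presentation genes of class I gave a similar account. The 12 genes summed to 135 and 140 CPM in R241E and 66.8, 100.9 and 289 CPM in WT, and without cluster 7 to 135 and 116 CPM against 55.8, 72.5 and 116 CPM. In microglial nuclei they summed to 2511 and 2428 CPM against 482, 579 and 692 CPM. None had enough UMIs in the GABAergic nuclei for the fit. H2-D1, a classical class I heavy chain gene (chr17:35263094-35267497), was the member singled out after its values were seen, at 39.1 and 54.2 CPM in R241E and 11.6, 13.5 and 10.3 CPM in WT. Both R241E libraries were above all WT libraries, with 33 UMIs in all and an exact permutation p of 0.1, the smallest this design can give. In the edgeR fit without a filter the log2 fold change was 1.82 ± 0.72 with an adjusted p of 0.207. H2-D1 stood at 54.6 CPM in cluster 1 and 13.4 CPM in clusters 2, 5 and 6 pooled.

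Receptors and transducers of these signals were sparse. Ifnar1 was at 26.0 and 31.6 CPM in R241E and 14.1, 33.6 and 51.6 CPM in WT, and Ifnar2 at 13.0 and 36.1 CPM against 32.1, 47.1 and 72.2 CPM, so both overlapped. Of 14 genes of interferon reception 5 were tested and of 14 genes of TNF reception 3, with median log2 fold changes of -0.12 and -0.36. For both lists 0 were called by edgeR or DESeq2 and 0 had an unadjusted p below 0.05. Stat2, which transmits the interferon signal, was at 52.1 and 58.7 CPM against 14.1, 20.2 and 41.3 CPM, without overlap, and was not called (1.39 ± 0.62, edgeR adjusted p = 0.308). Cgas itself gave 3 UMIs in all GABAergic nuclei, and since the counts carry no bases the R241E allele could not be checked from them.

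Astrocyte transcripts also differed between libraries. The 8 astrocyte marker genes summed to 473 and 49.7 CPM in R241E and 1009, 1090 and 836 CPM in WT, and 4 tested members had a median log2 fold change of -1.69 with 0 called by edgeR or DESeq2 (2 at an unadjusted p below 0.05). All 8 had a UMI. Slc1a3, an astrocyte glutamate transporter gene, was at 979 CPM in cluster 5, 226 in cluster 2, 26.8 in cluster 6 and 0 in cluster 1, and its part in the genotype comparison was not tested apart from the clusters.

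The glutamatergic nuclei of the same libraries, the most similar class, were taken for comparison. They numbered 39 and 29 in R241E and 24, 27 and 19 in WT. Of 2856 genes tested there, 0 (0%) were called by edgeR, 140 had an unadjusted p below 0.05, and DESeq2 called 2. Whether a genotype difference was particular to GABAergic nuclei was asked of the interaction of class and genotype within libraries, in which 0 of 4277 genes (0%) were called by edgeR, with 431 at an unadjusted p below 0.05 and a smallest adjusted p of 0.0649. DESeq2 was not run for the interaction. The genes with the smallest p were Galnt17, Tenm2, 4930445B16Rik, Gm28376 and Cacna2d3, higher in GABAergic R241E nuclei relative to glutamatergic ones, and Pde1c, Mertk, Pag1, Hdac9 and Slc9a9, lower. Mertk is a phagocytosis receptor gene of microglia and led cluster 7. No gene difference was therefore shown to be particular to the GABAergic nuclei.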

How the data were processed

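The deposited files held raw UMI counts per gene and nucleus for 5 mouse snRNA-seq libraries, which the authors made with Cell Ranger 7.0.0 and the mm10 genome. The 32285 genes were matched by their deposited identifiers and symbols. Coordinates came from the GRCm38.p6 RefSeq gene table.

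Nuclei were filtered and chosen by the rule stated above. No doublet caller was run, and the limits of 4500 genes and 10000 UMIs stood in for one. The 277 nuclei were clustered in scanpy 1.11.5 (2000 variable genes, 20 components, 15 neighbours, Leiden resolution 0.5). A cluster was named when at least 3 markers of a list were each found in at least 20% of its nuclei and at least 4-fold above other kept non-neuronal nuclei, 2 of them in at least 50%. The list also had to pass more markers than any other list, and fewer than 3 of the 20 leading genes could be microglial markers. This rule was set after the clusters were seen.

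For each library the UMIs of a class were added up, and these sums were tested in edgeR 4.0.16 (R 4.3.3; TMM, filterByExpr, quasi-likelihood test, Benjamini-Hochberg over all genes tested). The study tested single nuclei with MAST, in which nuclei act as replicates. The test script was checked on simulated data. CPM are per library and class; ratios of pooled CPM used a pseudocount of 20.

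Genes named from the fit were up to 10 in each direction with the smallest p among called genes without overlap, up to 5 in each direction from the interaction, and, in each list, called genes and up to 6 with the highest mean. Members and lists were chosen with earlier results of these data known. Alternatives were DESeq2 1.42.0, DESeq2 size factors, no filter, the mouse number as a block, other limits of the rule and omission of each library. Some genes are not reported here.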

Additional observations from a re-analysis of the deposited data

How the results depend on the processing

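The count of 93 genes that differed by genotype in GABAergic nuclei moved with most choices. DESeq2's Wald test gave 211 genes (89 of the 93 among them), no filter on low counts 614, at least 2 GABA UMIs per nucleus 143, at least 12 neuronal UMIs 50, and nuclei with 3 or more microglial UMIs left out 143, whereas 0 were called with the upper limits on genes and UMIs lifted (689 at an unadjusted p below 0.05; smallest edgeR adjusted p 0.122). Within clusters 2, 5 and 6 or within cluster 1, alternatives added after the data were seen, 0 were called, with fewer nuclei and genes entering. Leaving out 1 library gave 0 to 302 genes, with 302 without R241E replicate 1, 145 without R241E replicate 2 and 0 without each WT replicate. When an R241E library was left out, the remaining one was assumed to vary like the WT libraries. The cause of these shifts was not tested. With the mouse number as a replicate block 169 genes were called; the labels give the groups shared numbers only, the deviations of same-numbered libraries correlated at 0.134 and 0.0592 over genes, and the numbers do not pair the mice. For the glutamatergic nuclei DESeq2 called 2 genes and leaving out 1 library 0 to 40. For the interaction no filter gave 120 genes, leaving out nuclei with 3 or more microglial UMIs 1, and leaving out 1 library 0 to 113. The interferon list had 0 called genes under every alternative run. The difference in the share of kept nuclei ranged from -2.99 to 1.27 percentage points when 1 library was left out and that in the share of transmitter-classed neurons from -16.8 to 2.31, both reversing only without WT replicate 1. Of 28 called genes named by the rule, 263 of 406 alternative values kept direction and call, 140 kept direction only and 3 reversed, all within cluster 1: Galnt17 at -0.64, Lrrc4c at -0.046 and Cacna2d3 at -0.11. A further 42 values could not be fitted because the genes were filtered out.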
